A study of Homo sapiens with 4 samples.

Results

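The EGFR family was followed across the libraries as 10 genes chosen by symbol out of the 33538 genes of the expression matrices. They are 4 receptors (EGFR, ERBB2, ERBB3 and ERBB4), 5 ligands (EGF, AREG, EREG, HBEGF and TGFA) and 1 inhibitor (ERRFI1), and each symbol matched 1 row. All 4 libraries were made from LNCaP, an androgen-sensitive human prostate cancer cell line, by droplet single-cell RNA sequencing of transcript 3' ends. The LNCaP library came from parental cells given the solvent DMSO at 0.1% for 48 h, and LNCaP-ENZ48 from parental cells given 10 µM enzalutamide, an antiandrogen drug, for 48 h. RES-A and RES-B are enzalutamide-resistant sublines of LNCaP, derived by passage in rising enzalutamide and by continuous exposure to the related antiandrogen RD-162, respectively, and both were kept in 10 µM enzalutamide. There was 1 library per group and so no replicate check of any difference, and all intervals are 95% intervals that cover counting error only. Where 4 values are given without names, the order is LNCaP, its 48 h treated counterpart, RES-A, RES-B.

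The ERBB receptors are tyrosine kinases that signal as pairs. EGF, AREG, EREG, HBEGF and TGFA bind EGFR, and EREG and HBEGF also bind ERBB4, whereas ERBB2 has no known ligand and ERBB3 has a weak kinase and binds neuregulins. Paired receptors feed the RAS, RAF, MEK and ERK kinase cascade and the PI3K pathway. The cascade induces its own inhibitors, and ERRFI1 (also called MIG6) binds the active EGFR kinase domain and blocks it. In prostate cancer cells these receptors are known as growth inputs that do not need androgen.

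To compare the libraries, unique molecular identifiers (UMIs, 1 per captured transcript) were summed over the kept cells of each library and divided by the library total, giving counts per 1000000 UMIs (CPM). The kept cells numbered 1782 in LNCaP, 4315 in LNCaP-ENZ48, 4061 in RES-B and 4569 in RES-A. They held 50208831 to 60838227 UMIs per library, with a median of 27079.5 UMIs per cell in LNCaP and 12138 to 13676 in the others. Between 2 and 12 cell barcodes were shared by each pair of libraries, and doublets were not removed. The luminal prostate markers KRT8, KRT18 and EPCAM were present in every library, while KLK2 and KLK3 were each at least 1 log2 unit below LNCaP in the other libraries. The basal markers KRT5 and TP63, the fibroblast collagen COL1A2 and the neuroendocrine marker CHGA had 0 UMIs in all libraries. Among the other members of those lists, KRT14, DCN and LUM stood below 0.4 CPM, INSM1 at no more than 1 UMI, COL1A1 between 1.45 and 3.19 CPM and SYP between 3.37 and 4.34 CPM.

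Of the 10 genes, 7 reached a mean of 1 CPM over the libraries, and ERBB4, AREG and EREG did not. A gene is counted as lower or higher where its CPM ratio was at least 1 log2 unit in size. After 48 h of enzalutamide 0 of the 7 were lower and 0 higher, where 1.25% and 0.768% of the 12627 genes at that minimum were. In RES-A against LNCaP 4 of 7 were lower (EGFR, EGF, HBEGF and ERRFI1) and 1 higher (TGFA), beside 6.86% and 7.89% of all genes. In RES-B against LNCaP 1 was lower (HBEGF) and 2 higher (ERBB3 and TGFA), beside 5.33% and 7.9% of all genes. In RES-B against RES-A 0 were lower and 3 higher (EGFR, EGF and ERRFI1), beside 4.02% and 5.39% of all genes, EGF passing narrowly at 1.03 and falling to 0.95 with TMM and 0.97 with DESeq2 scaling, so that 2 were higher. The median log2 ratio of the 7 genes was -0.18, -1.07, 0.00 and 0.75 in these 4 comparisons, and that of all genes was -0.08, 0.02, 0.10 and 0.08. The first 3 comparisons share the LNCaP library. Among cells called G1 alone, 2 genes were lower in RES-A against LNCaP, since HBEGF stood at -0.90 and EGF, at -0.88, had a mean under the minimum of 1 CPM (0.901 CPM).

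**Figure D1:**
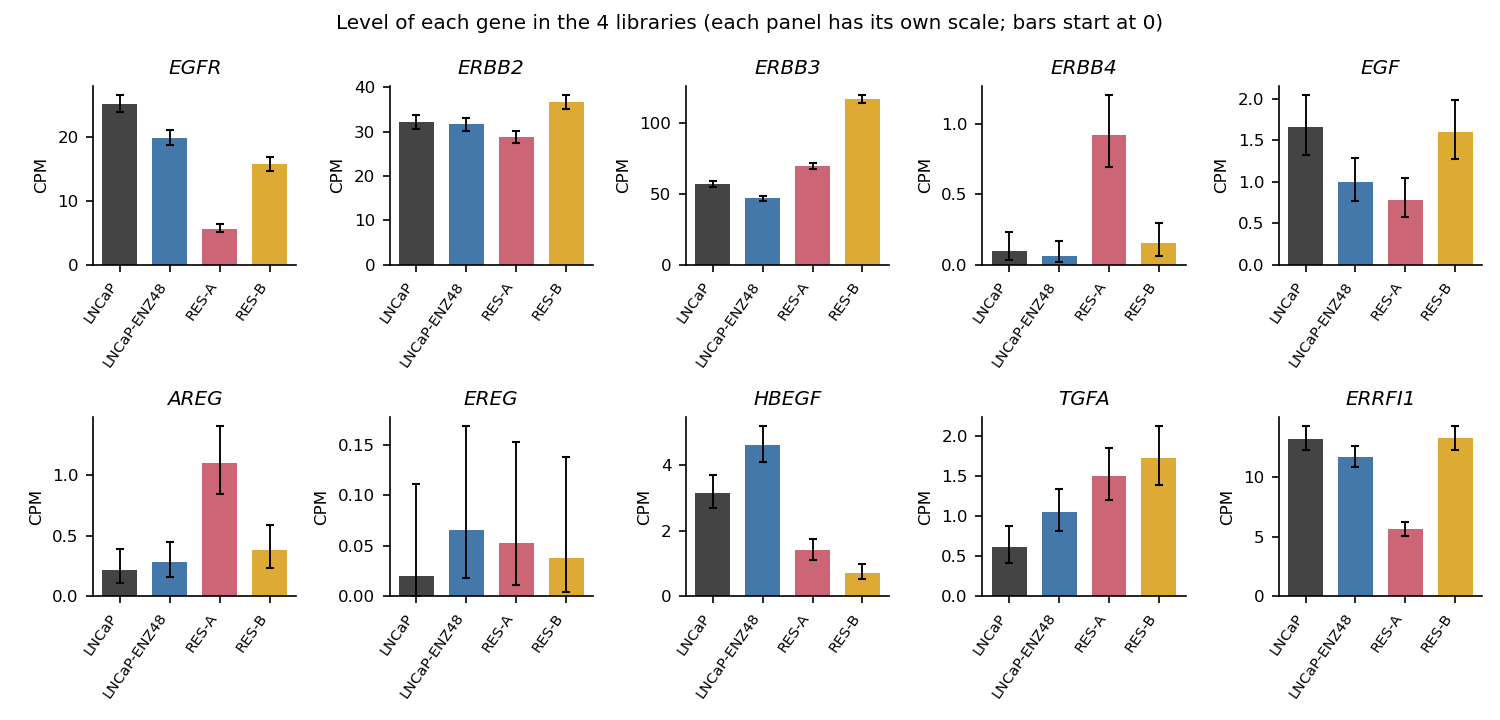
Level of each of the 10 genes in CPM (vertical axis, a separate scale for each gene, starting at 0) in each library; bars are CPM of summed UMIs and whiskers exact Poisson 95% intervals. EGFR and ERRFI1 were lowest in RES-A, at 5.69 and 5.62 CPM, ERBB3 was highest in RES-B, at 117 CPM, and the EREG bars rest on 1 to 4 UMIs.

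The starts of the 4 genes that were lower in RES-A are shown as the RefSeq sequence of the 250 bases before an annotated start, so that they can be read beside each other. The strand given is that of the gene, GRCh38.p14 is the build, and capitals mark the GC box GGGCGG or its reverse complement CCGCCC.
EGFR, chr7:55018767-55019016, plus strand: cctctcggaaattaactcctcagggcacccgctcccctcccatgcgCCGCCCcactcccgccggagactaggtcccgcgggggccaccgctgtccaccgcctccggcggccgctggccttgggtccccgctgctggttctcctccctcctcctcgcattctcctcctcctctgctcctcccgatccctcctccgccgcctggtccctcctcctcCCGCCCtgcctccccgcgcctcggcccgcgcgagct
EGF, chr4:109912633-109912882, plus strand: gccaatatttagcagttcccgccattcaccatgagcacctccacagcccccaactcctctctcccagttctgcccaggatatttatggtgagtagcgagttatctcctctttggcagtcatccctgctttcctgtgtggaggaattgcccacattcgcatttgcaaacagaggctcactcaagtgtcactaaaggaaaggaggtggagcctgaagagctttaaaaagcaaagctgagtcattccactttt
HBEGF, chr5:140346604-140346853, minus strand: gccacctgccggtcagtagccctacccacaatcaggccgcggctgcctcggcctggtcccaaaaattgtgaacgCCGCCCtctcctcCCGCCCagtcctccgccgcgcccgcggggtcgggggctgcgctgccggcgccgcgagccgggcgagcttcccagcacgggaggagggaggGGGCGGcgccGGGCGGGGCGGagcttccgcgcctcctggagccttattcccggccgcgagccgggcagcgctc
ERRFI1, chr1:8026310-8026559, minus strand: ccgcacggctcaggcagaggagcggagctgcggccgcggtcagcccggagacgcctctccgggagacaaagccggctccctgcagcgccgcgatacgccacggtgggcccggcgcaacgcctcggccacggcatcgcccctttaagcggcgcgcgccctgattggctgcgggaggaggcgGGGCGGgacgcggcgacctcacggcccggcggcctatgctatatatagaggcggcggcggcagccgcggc
EGFR held 2 GC boxes, HBEGF 5 of which 2 overlap, ERRFI1 1 and EGF 0, and the EGFR, HBEGF and ERRFI1 windows were 73.6% to 76.4% G and C against 48.8% for EGF. A second RefSeq start of EGFR, further downstream and not printed, had a window with 0 GC boxes and 38.8% G and C. Of the 10 genes 9 had a window in the RefSeq table (not ERBB3), EGFR and TGFA having 2 each, and 6 of these 11 windows held a GC box, which stood in 42.6% of all 35116 windows of this length. ACGTG, the core of the hypoxia response element, was searched on both strands as well and stood in 0 of the 11 and in 18.5% of all windows. TGTTCT, a part of the androgen response element, stood in the ERBB4 window, in 1 of the TGFA windows and in 12.4% of all windows. These matches describe letters in the windows and not bound sites.

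EGFR (chr7:55019017-55211628, plus strand, GRCh38, as are all positions here), the receptor that gives the family its name, was highest in LNCaP at 25.3 CPM (1270 UMIs, interval 23.9 to 26.7). It stood at 19.95 CPM in LNCaP-ENZ48, 5.69 CPM in RES-A (326 UMIs, interval 5.09 to 6.34) and 15.7 CPM in RES-B. None of the 4 intervals, which cover counting error only, overlapped, and from high to low the libraries ran LNCaP, LNCaP-ENZ48, RES-B and RES-A. On the log2 scale EGFR differed from LNCaP by -0.34 [-0.46, -0.23] in LNCaP-ENZ48, by -0.68 [-0.81, -0.56] in RES-B and by -2.15 [-2.33, -1.98] in RES-A. Both resistant lines had a lower EGFR level than their parent, with RES-B 2.77-fold above RES-A. The 50 measured genes nearest to EGFR on chromosome 7 did not share the low level, since their median log2 ratio in RES-A was 0.08, and 1 of 50 was as low as EGFR or lower.

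ERBB3 (chr12:56076799-56103505, plus strand), the neuregulin receptor that depends on its partners' kinases, was highest in RES-B. Its level was 57.2 CPM in LNCaP, 46.9 CPM in LNCaP-ENZ48, 117 CPM in RES-B (6175 UMIs, interval 115 to 120) and 69.7 CPM in RES-A, and no 2 intervals overlapped. The log2 ratio to LNCaP was -0.28 [-0.36, -0.21] after 48 h, 1.04 [0.97, 1.10] in RES-B and 0.29 [0.22, 0.36] in RES-A. The RES-B value sat close to the threshold and came to 0.93 with TMM and 0.94 with DESeq2 scaling. Of the 50 genes nearest to ERBB3, 46 had a lower ratio in RES-B against LNCaP than ERBB3 did. In RES-A against LNCaP the same 50 genes had a median log2 ratio of 0.31, close to that of ERBB3, and 24 were at or below it. RES-B so had more ERBB3 and less EGFR than its parent, and RES-A had much less EGFR with ERBB3 only slightly above LNCaP.

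ERBB2 (chr17:39687914-39730426, plus strand), the preferred partner of the other receptors, varied least. Its levels were 32.1 CPM in LNCaP, 31.6 CPM in LNCaP-ENZ48, 36.7 CPM in RES-B and 28.7 CPM in RES-A. The LNCaP and LNCaP-ENZ48 values did not differ beyond counting error (log2 ratio -0.02 [-0.12, 0.07]), while RES-A lay below LNCaP, at -0.16 [-0.26, -0.06], and RES-B above it, at 0.19 [0.10, 0.29]. The spread of ERBB2 over the libraries was small beside that of EGFR and ERBB3, and variation between cultures of 1 line was not measured.

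ERBB4 (chr2:211375717-212538841, minus strand), the other neuregulin receptor, was rare, and least so in RES-A. It had 5, 4, 53 and 8 UMIs, which is 0.0996, 0.0657, 0.924 and 0.152 CPM. RES-A stood 3.21 log2 units above LNCaP [1.90, 4.90], and RES-B was 2.60 log2 units below RES-A, at -2.60 [-3.89, -1.52]. The RES-A UMIs lay 1 to a cell in 1.16% of its cells. RES-A was the library with the least EGFR and the most ERBB4.

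**Figure D2:**
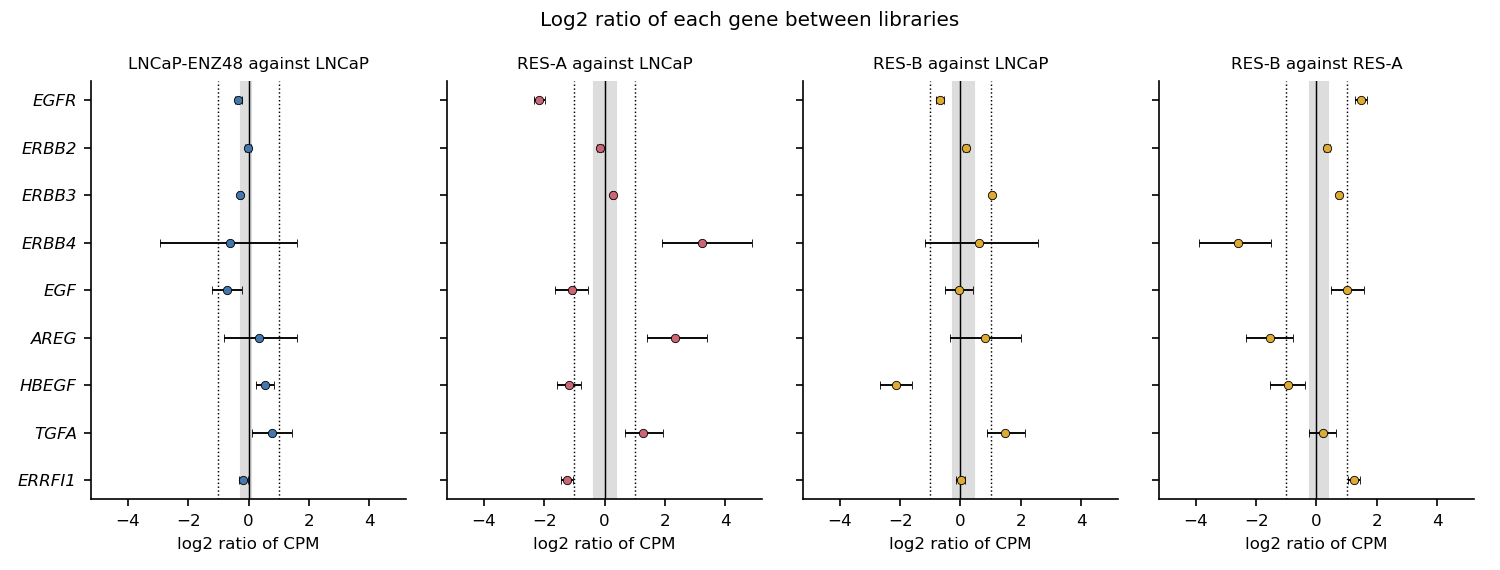
Log2 ratio of CPM (horizontal axis) for 9 of the genes (vertical axis, EREG left out for its 1 to 4 UMIs) in each comparison; whiskers are exact 95% intervals, the grey band spans the middle 50% of the 12627 genes and dotted lines mark 1 log2 unit. EGFR at -2.15, EGF at -1.07, HBEGF at -1.17 and ERRFI1 at -1.23 lie left of the band in RES-A, while ERBB4 at 3.21 and AREG at 2.33 lie right of it.

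The ligands were scarce in every library, each at 4.60 CPM or below. HBEGF (chr5:140332843-140346603, minus strand), the heparin-binding ligand, was the most variable of those above the minimum. It stood at 3.15 CPM in LNCaP (158 UMIs), 4.60 CPM in LNCaP-ENZ48 (280 UMIs), 1.40 CPM in RES-A (80 UMIs) and 0.723 CPM in RES-B (38 UMIs). It was higher after 48 h of enzalutamide, by 0.55 log2 units [0.26, 0.84], and lower in both lines kept in the drug, at -2.12 [-2.67, -1.60] in RES-B and -1.17 [-1.58, -0.78] in RES-A.

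TGFA (chr2:70447284-70554193, minus strand), a ligand of EGFR, differed in the other direction. Its levels were 0.617 CPM in LNCaP (31 UMIs), 1.05 CPM in LNCaP-ENZ48, 1.73 CPM in RES-B (91 UMIs) and 1.4999 CPM in RES-A. The ratio to LNCaP was 0.77 [0.13, 1.44], 1.28 [0.67, 1.92] and 1.49 [0.88, 2.12] log2 units, and the resistant lines did not differ beyond counting error (0.21 [-0.23, 0.65]). In both resistant lines HBEGF and TGFA lay on opposite sides of LNCaP.

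EGF (chr4:109912883-110013766, plus strand), the ligand after which the receptor is named, had 83, 61, 45 and 84 UMIs. These are 1.65, 1.00, 0.785 and 1.60 CPM. LNCaP and RES-B were alike within counting error (-0.05 [-0.50, 0.41]). The drug-treated parent and RES-A lay below, at -0.72 [-1.22, -0.23] and -1.07 [-1.63, -0.53]. With only the cells called G1 kept, the drug-treated parent stood much nearer to LNCaP, at -0.27. RES-A was then at -0.88 and RES-B at 0.28, with the mean EGF level under the minimum (0.901 CPM). AREG (chr4:74445136-74455005, plus strand), amphiregulin, had 11, 17, 63 and 20 UMIs, and RES-A exceeded LNCaP by 2.33 log2 units [1.39, 3.40]. The 50 measured genes around AREG had a median log2 ratio of 0.20 in RES-A against LNCaP and of -0.36 in RES-B against RES-A, where AREG itself was at -1.53 [-2.33, -0.78] and 7 of the 50 were as low or lower. EREG (chr4:74365145-74388749, plus strand), epiregulin, which lies beside AREG, had 1, 4, 3 and 2 UMIs and allows no comparison at this depth.

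ERRFI1 (chr1:8004404-8026309, minus strand), the receptor inhibitor, was low in RES-A alone. It stood at 13.2 CPM in LNCaP (663 UMIs), 11.7 CPM in LNCaP-ENZ48, 5.62 CPM in RES-A (322 UMIs) and 13.2 CPM in RES-B (696 UMIs). The log2 ratio to LNCaP was -0.18 [-0.33, -0.02], -1.23 [-1.43, -1.04] and 0.00 [-0.15, 0.16]. LNCaP and RES-B were equal within counting error, and RES-A had less of both EGFR and this inhibitor of it. Among the 50 genes around ERRFI1 the median log2 ratio in RES-A was -0.12, and 5 of the 50 were as low or lower.

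The share of cells with a UMI was compared after each cell was thinned to 5000 UMIs, because the LNCaP cells were sequenced more deeply. EGFR was then found in 10.6% [9.21, 12.1] of LNCaP cells, 9.99% [9.11, 10.9] of LNCaP-ENZ48 cells, 3.15% [2.66, 3.70] of RES-A cells and 7.61% [6.81, 8.47] of RES-B cells. Without thinning the shares were 44.3%, 22.9%, 6.78% and 16.0%. The gap between LNCaP and LNCaP-ENZ48 narrowed at equal depth, where their intervals overlapped, and RES-A was lowest either way. The ERBB3 share was 25.03%, 21.6%, 29.9% and 43.8% of thinned cells, and 76.2%, 46.4%, 56.5% and 74.6% unthinned. The ERBB2 share stayed between 13.6% and 16.0% of thinned cells (29.7% to 58.3% unthinned).

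The scarcer genes were found in few cells. ERRFI1 had a UMI in 5.72%, 5.49%, 2.43% and 6.28% of thinned cells (29.8%, 14.7%, 6.83% and 14.97% unthinned), and HBEGF in 1.57%, 2.06%, 0.744% and 0.197% (8.08%, 6.23%, 1.71% and 0.936% unthinned). TGFA was found in 0.393% to 0.862% of thinned cells, EGF in 0.219% to 0.730% and AREG in 0.112% to 0.635%. No cell type that lacks these genes was present, so 10 genes of unrelated lineages served as the background. Of these, 9 were in at most 0.0657% of the thinned cells of any library, and ALB was the exception with 0.0561%, 0.324%, 1.49% and 0%. In RES-A the ALB share was above those of HBEGF, TGFA, EGF and AREG, so with ALB counted the background does not set these genes apart there. Whether the ALB UMIs were stray was not tested. The EREG share was at most 0.0246%, within the range of the 9 background genes, and ERBB4 had a UMI in 0 of 4315 LNCaP-ENZ48 cells at this thinned depth and in 4 of them (0.0927%) unthinned.

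No receptor UMI was seen in 56.2% of thinned LNCaP cells, 60.7% of LNCaP-ENZ48 cells, 58.6% of RES-A cells and 43.2% of RES-B cells, and UMIs of 2 receptors in 6.34%, 6.14%, 5.32% and 9.31%. To see whether the genes fell in the same cells, 7 pairs, chosen after the levels were known, were counted in each library beside the product of their separate shares. In 26 of the 28 values the product lay inside the interval of the observed share. Pairs with few shared cells, such as EGFR and TGFA with 1, 2, 1 and 0, had intervals too wide to tell the 2 apart. EGFR and ERBB2, for example, were found together in 1.68% [1.14, 2.39] of LNCaP cells, where the product was 1.67%. The exceptions were both in LNCaP-ENZ48, where EGFR and ERBB3 shared 115 cells beside a product of 93.2 cells, and EGFR and HBEGF shared 3 cells beside 8.89.

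Within a library EGFR was unevenly spread over the cells. Over the thinned cells, the genes whose log-normalised UMIs followed EGFR most closely on average were BNIP3, a mitophagy receptor, and the glycolytic enzymes GAPDH and PGK1. Their Pearson correlations with EGFR were 0.16 to 0.17 over the 1782 LNCaP cells, 0.0892 to 0.110 over the 4315 LNCaP-ENZ48 cells, 0.00257 to 0.0580 over the 4569 RES-A cells and 0.21 to 0.25 over the 4061 RES-B cells. These are weak correlations of sparse counts in cells that share a library, and none of the 7459 genes searched reached 0.1 in every library. Because BNIP3 and PGK1 are textbook targets of the hypoxia response, the UMIs of 17 hypoxia and glycolysis genes (ADM, ALDOA, ANKRD37, BNIP3, CA9, EGLN3, ENO1, KDM3A, LDHA, NDRG1, P4HA1, PDK1, PFKFB3, PFKFB4, PGK1, SLC2A1 and VEGFA) were summed in each thinned cell. This list was written after the correlations were seen, so what follows is a description.

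The cells of each library were ordered by that sum and divided into quintiles. In RES-B the EGFR level was 6.89, 7.97, 6.82, 14.3 and 49.2 CPM from the lowest to the highest quintile, so that the highest exceeded the lowest by 2.83 log2 units [2.47, 3.21]. In LNCaP the levels were 16.2, 20.3, 20.3, 21.03 and 50.3 CPM, a difference of 1.63 [1.38, 1.89]. LNCaP-ENZ48 had 14.9, 16.0, 15.4, 17.1 and 38.6 CPM, a difference of 1.37 [1.12, 1.63]. RES-A, with the lowest EGFR, had 4.55, 5.11, 4.66, 4.89 and 9.36 CPM, a difference of 1.04 [0.55, 1.55]. In every library, then, the cells richest in these transcripts had the most EGFR, and in quintiles 1 to 3 the RES-B level was 6.82 to 7.97 CPM beside 4.55 to 5.11 CPM in RES-A.

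**Figure D3:**
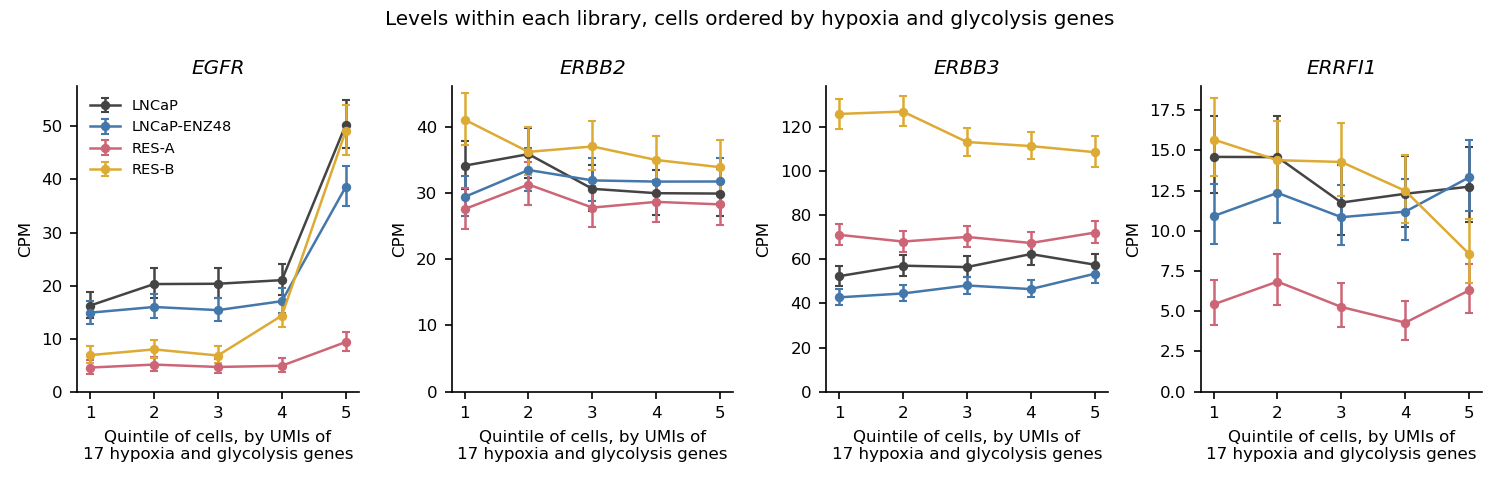
CPM (vertical axis, starting at 0) of EGFR, ERBB2, ERBB3 and ERRFI1 in quintiles of the cells of each library, ordered by thinned UMIs of 17 hypoxia and glycolysis genes (horizontal axis, 1 lowest, 5 highest); points are CPM of summed UMIs and whiskers exact Poisson 95% intervals. EGFR in quintile 5 reached 50.3 CPM in LNCaP and 49.2 CPM in RES-B against 9.36 CPM in RES-A, while ERBB2 and ERBB3 differed by at most 0.32 log2 units between quintiles 1 and 5.

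ERBB2 and ERBB3 varied less than EGFR with these transcripts. Between the lowest and highest quintile ERBB2 differed by -0.28 to 0.11 log2 units and ERBB3 by -0.21 to 0.32 over the libraries. Of these, ERBB3 in LNCaP-ENZ48 (0.32 [0.15, 0.49]) had an interval clear of 0. In RES-B both had one on the other side, at -0.21 [-0.34, -0.09] for ERBB3 and -0.28 [-0.50, -0.06] for ERBB2. In RES-B, where the EGFR difference was widest, ERRFI1 was lower in the highest quintile (8.55 against 15.7 CPM, log2 ratio -0.87 [-1.29, -0.47]), and so was EGF (3 against 20 UMIs, -2.46 [-4.86, -0.71]). The cells of quintile 5 in RES-B also had fewer UMIs (median 10089.5 against 12398 in quintile 1) and a smaller share of mitochondrial UMIs (8.92% against 13.0%), and the part of these in the EGFR pattern was not tested. Leaving BNIP3 and PGK1 out of the sum gave EGFR differences of 1.35, 1.25, 0.52 and 2.83 log2 units, the RES-A interval [0.04, 1.01] being nearly at 0. Over cells, the correlation of EGFR with the sum of the 17 genes was 0.20, 0.12, 0.02 and 0.27, so that it was weakest in RES-A. Among cells called G1 alone the EGFR differences were 1.61, 1.39, 0.94 and 2.78.

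The quintiles of different libraries do not hold like cells, so the same cut was also set in all of them. Cells with over 20 thinned UMIs of the 17 genes made up 10.0%, 11.4%, 4.79% and 23.8% of the 4 libraries, RES-B having the most and RES-A the fewest, and 1.85% to 2.45% of the cells lay between 19 and 22 UMIs, near the cut. The cells with over 20 held 25.04%, 23.6%, 11.7% and 59.5% of the EGFR UMIs of their library. Their EGFR level was 72.2, 50.1, 15.5 and 45.1 CPM. In cells with 0 to 10 such UMIs the EGFR level was 19.4, 15.6, 4.83 and 7.17 CPM. RES-B was below LNCaP by more in these cells, at -1.44 log2 units [-1.65, -1.23], than over all its cells (-0.68), and RES-B exceeded RES-A there by 0.57 [0.30, 0.84] rather than 1.47. RES-A stood at -2.01 [-2.23, -1.79] against LNCaP in the cells with 0 to 10 and at -2.22 [-2.75, -1.73] in those with over 20.

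To see how the genes varied with the cell cycle, cells were called G1, S or G2/M from the Seurat gene lists. EGF was higher in cells called G2/M than in those called G1 in all 4 libraries. In LNCaP 47 of 83 EGF UMIs came from the 333 G2/M cells, or 4.61 CPM against 1.00 CPM in G1 (log2 ratio 2.20 [1.54, 2.87]). The ratio in the other libraries was 1.59 [0.70, 2.42], 1.67 [0.70, 2.64] and 1.46 [0.76, 2.14]. With cells at equal depth the 4 ratios were 2.62, 2.54, 2.86 and 1.13, from 6 to 9 UMIs in G2/M, and the RES-B interval [-0.20, 2.36] then included 0. ERRFI1 was higher in G2/M than in G1 in RES-B (19.2 against 11.1 CPM, 0.79 [0.53, 1.04]) and in LNCaP (0.34 [0.07, 0.60]), but not beyond counting error in LNCaP-ENZ48 (-0.13 [-0.48, 0.21]) or RES-A (0.16 [-0.25, 0.55]). EGFR was lower in G2/M in LNCaP (-0.29 [-0.51, -0.08]) and LNCaP-ENZ48 (-0.37 [-0.66, -0.09]), with intervals across 0 in RES-A and RES-B. AREG in RES-A had 25 UMIs in each of the G1 and G2/M cells, or 0.680 and 2.17 CPM, a log2 ratio of 1.67 [0.81, 2.53]. In the other libraries AREG had 2 to 6 UMIs in G2/M, with ratios of 2.36 [0.28, 4.63], 0.19 [-3.01, 2.36] and 0.68 [-0.98, 2.15]. HBEGF was lower in G2/M in LNCaP-ENZ48 (-0.82 [-1.56, -0.16]) and ERBB2 in RES-A (-0.48 [-0.68, -0.29]), and ERBB3 was higher in LNCaP (0.22) but lower in RES-B (-0.10) and RES-A (-0.16), with intervals clear of 0. Called G2/M cells made up 18.7%, 11.3%, 18.5% and 16.8% of the 4 libraries.

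**Figure D4:**
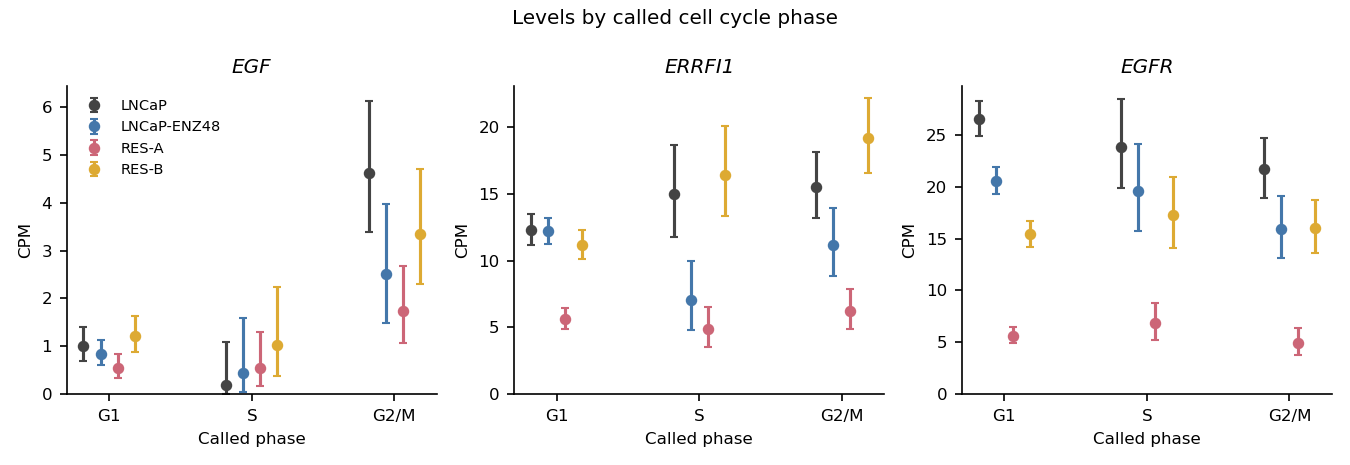
CPM (vertical axis, starting at 0) of EGF, ERRFI1 and EGFR in cells called G1, S and G2/M (horizontal axis) of each library; points are CPM of summed UMIs and whiskers exact Poisson 95% intervals. EGF in G2/M reached 4.61 CPM in LNCaP against 1.00 CPM in G1, and ERRFI1 in RES-B 19.2 CPM against 11.1 CPM.

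To place the family in its pathway, 47 further genes were followed, of which 33 reached a mean of 1 CPM. The numbers lower and higher by at least 1 log2 unit were 1 and 0 after 48 h of enzalutamide, 7 and 1 in RES-A, 4 and 1 in RES-B, and 1 and 1 in RES-B against RES-A. The medians of the 33 were -0.05, -0.22, -0.19 and 0.06. The genes that differed were mostly inhibitors and targets of the cascade rather than its kinases, and the percentages of all genes are those given above.

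The other ligands were scarce, and all 6 (BTC, EPGN, NRG1, NRG2, NRG3 and NRG4) were below 1 CPM on average. NRG1, the best-known ERBB3 ligand, had 0 UMIs in all libraries, where 3 UMIs, the limit used for a count of 0, would be 0.0598 CPM in LNCaP. NRG3, a ligand of ERBB4, had 18, 61, 2 and 7 UMIs. RES-A, where ERBB4 was highest, had the fewest NRG3 UMIs, with a log2 ratio to LNCaP of -3.36 [-6.51, -1.30]. BTC, betacellulin, had 14, 2, 18 and 2 UMIs. The proteases and helpers that release ligands from the membrane (ADAM10, ADAM17, RHBDF1 and RHBDF2) all stayed within 1 log2 unit.

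Of the 17 adaptors and kinases, among them GRB2, SHC1 and the RAS genes, 1 passed the threshold. BRAF, a RAF kinase, stood at 39.4 CPM in LNCaP, 33.4 in LNCaP-ENZ48, 19.7 in RES-B and 17.5 in RES-A, a log2 ratio of -1.17 [-1.29, -1.06] in RES-A and just short of 1 log2 unit lower in RES-B. With TMM and DESeq2 scaling BRAF in RES-B came to -1.10, and CBL, a ubiquitin ligase of the receptors, to -1.03, which made 6 pathway genes lower there instead of 4. BRAF has a near-identical pseudogene, and how reads were divided between them was not tested.

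Among the 12 genes that turn over the receptors or restrain the cascade, 9 passed the minimum, and 4 were lower and 1 higher in RES-A, 3 and 1 in RES-B. Of all genes at that minimum 6.86% were lower and 7.89% higher in RES-A, and 5.33% and 7.9% in RES-B. DUSP4, a phosphatase that inactivates ERK in the nucleus, stood at 43.3, 22.2, 8.88 and 0.799 CPM, from 2174 UMIs in LNCaP to 42 in RES-B. Its log2 ratio to LNCaP was -0.97 after 48 h, -5.76 [-6.24, -5.32] in RES-B and -2.29 in RES-A. DUSP5, a related nuclear phosphatase, was higher instead, at 0.677, 0.986, 3.12 and 3.39 CPM. SPRY1, a Sprouty inhibitor of receptor signalling, was at 9.44, 6.61, 1.55 and 2.45 CPM, while its paralog SPRY2, below the minimum, had 5, 1, 63 and 60 UMIs.

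LRIG1 and RNF41 lower receptor protein, LRIG1 acting on all members of the family and the ubiquitin ligase RNF41 (NRDP1) on ERBB3. LRIG1 stood at 20.5, 12.9, 6.77 and 13.1 CPM, with a log2 ratio of -1.60 [-1.77, -1.43] in RES-A. RNF41 stood at 83.5, 53.6, 32.5 and 31.1 CPM, with -1.42 [-1.51, -1.34] in RES-B and -1.36 [-1.44, -1.28] in RES-A. Both genes were highest in LNCaP and had already a lower level after 48 h of enzalutamide.

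Of 8 genes that ERK signalling is known to induce, 3 passed the minimum. PHLDA1 stood at 4.76, 1.48, 0.419 and 0.533 CPM and was lower than LNCaP in each of the other libraries, at -1.69, -3.51 and -3.16 log2 units. FOS, an immediate early transcription factor, stood at 1.95, 2.25, 0.279 and 1.45 CPM, so that only RES-A passed the threshold, at -2.81 [-3.67, -2.04]. CCND1, cyclin D1, differed by less than 1 log2 unit, at 272, 263, 186 and 149 CPM. DUSP6, of the list of inhibitors above and often read as a gauge of ERK activity, had 28, 28, 11 and 15 UMIs. Of the induced genes below the minimum, IER3 had 11, 2, 3 and 4 UMIs, EGR1 13, 23, 16 and 10, and FOSL1 9, 21, 8 and 4. ETV5 had 14, 14, 9 and 14 UMIs and ETV4 3, 5, 1 and 1. The ratios of EGR1, FOSL1, ETV4 and ETV5 to LNCaP all had intervals across 0. IER3 lay below LNCaP, at -2.74 [-5.95, -0.54] in LNCaP-ENZ48 and -2.07 [-4.55, -0.15] in RES-A, with an interval across 0 in RES-B. DUSP6 lay below LNCaP as well, at -1.54 [-2.69, -0.49] in RES-A and, barely clear of 0, -0.97 [-1.98, -0.01] in RES-B. Its interval in LNCaP-ENZ48 crossed 0.

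**Figure D5:**
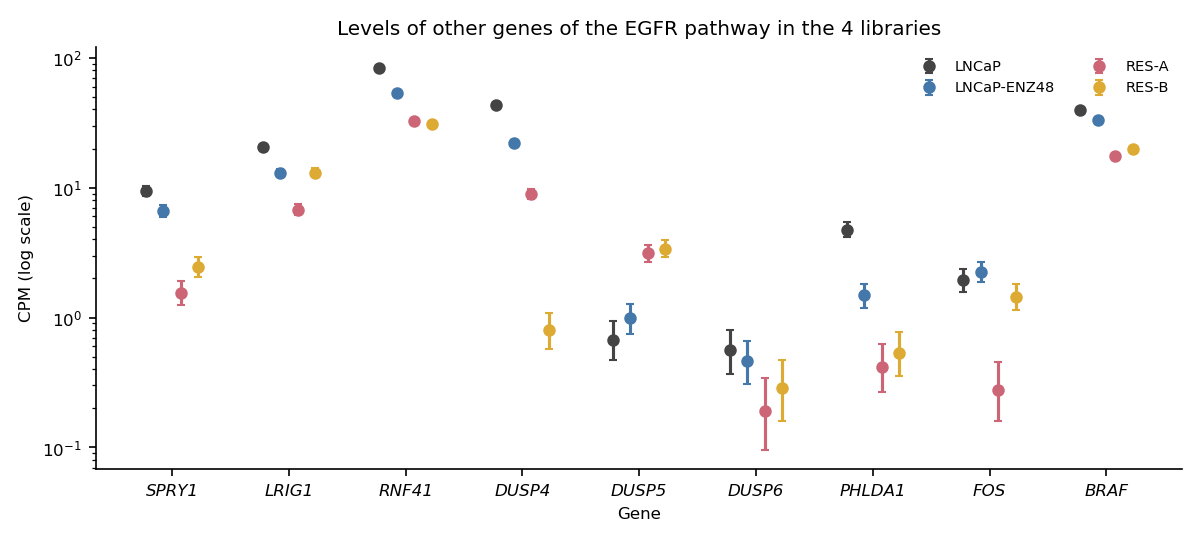
CPM (vertical axis, log scale) of 9 other genes of the pathway (horizontal axis) in the 4 libraries; points are CPM of summed UMIs and whiskers exact Poisson 95% intervals. DUSP4 runs from 43.3 CPM in LNCaP to 0.799 CPM in RES-B, and DUSP5 from 0.677 to 3.39 CPM.

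The genes with the profile most like each receptor or ERRFI1 were sought among 7459 other genes whose mean was 10 CPM or more, by the distance between centred log2 profiles over the 4 libraries. For EGFR these were RCCD1, TJP1 and MYO6 (distances 0.13, 0.16 and 0.21 log2 units). MYO6, an actin motor of endocytosis, stood at 494 CPM in LNCaP, 436 in LNCaP-ENZ48, 309 in RES-B and 102 in RES-A. For ERBB2 they were GGA2, NPEPPS and FAM199X (0.019, 0.022 and 0.029), for ERBB3 MSTO1, KLHL21 and C6orf62 (0.083, 0.099 and 0.10), and for ERRFI1 PCMTD1, ZNF883 and MCFD2 (0.077, 0.094 and 0.13). A profile of 4 points matches many genes by its shape alone.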

How the data were processed

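Single-cell RNA libraries of 4 LNCaP cultures (10x Chromium 3' chemistry, 1 library per group) were analysed as deposited. Per the labels and the study's methods, the authors aligned reads to GRCh38 and counted UMIs per gene and cell with Cell Ranger 3.0.2, and the deposited values are raw UMI counts without normalisation. No doublet removal was applied here. Cells were kept by the study's limits for each library: 3000 to 7000 genes, 16000 to 50000 UMIs and under 15% mitochondrial UMIs in LNCaP, and 1500 to 5000 genes and 5000 to 25000 UMIs with under 15% (LNCaP-ENZ48), 17% (RES-A) or 20% (RES-B) in the others, leaving 14727 of 17233 barcodes. LNCaP cells kept by its higher limits are deeper, so shares of cells were compared after thinning each cell to 5000 UMIs without replacement.

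Counts were summed per library and given as CPM with exact Poisson intervals; log2 ratios have exact conditional (Clopper-Pearson) intervals and shares exact binomial (Clopper-Pearson) ones. With 1 library per group no p-value was computed. UMIs are molecules, so intervals cover counting error but not variation between cultures. A count of 0 was read as at most 3 UMIs per library. Levels are not compared between genes, since 3' counting captures transcripts unequally. The ratio step was tested on simulated counts. Phases were called with scanpy 1.11.5 and the lists of Seurat 5.3.0 (43 S and 54 G2/M genes); a first pass had joined an older version of these lists and was replaced. Positions are from GENCODE 44 (GRCh38), in which 33113 of 33538 gene IDs matched, and promoters from RefSeq (GRCh38.p14). All members are named; other genes are named where they lie at least 1 log2 unit from LNCaP or, by profile, are the 3 nearest to a member. The members and lists were chosen with earlier results of these data known. Genes that fall outside this rule, and the 17 hypoxia and glycolysis genes, were picked after their values were seen. Alternatives tried were other cell filters, TMM (edgeR 4.0.16) and DESeq2 1.42.0 scaling, per-cell means, G1 cells only, leaving out the 5% of cells with the most UMIs, other CPM minimums and other thinning. The study's other assays were not analysed here.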

Additional observations from a re-analysis of the deposited data

Results flagged for a closer look

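ERBB2 was marked because the resistant lines lay on opposite sides of their parent: its log2 ratio to LNCaP was 0.19 [0.10, 0.29] in RES-B and -0.16 [-0.26, -0.06] in RES-A. The difference was not tested over replicates, since each group is 1 library and the intervals cover counting error only. Under the 7 other choices of cells and scaling the RES-A value ran from -0.20 to -0.07 and the RES-B value from 0.09 to 0.25. Each kept its sign, while the RES-B value was 0.09 with TMM and with DESeq2 scaling. No intervals were computed for the ratios under these choices, so whether the smallest values exceed counting error was not tested. Among G1 cells the ERBB2 levels were 31.5 CPM [29.7, 33.4] in RES-A and 33.1 CPM [31.2, 35.0] in LNCaP, with overlapping intervals. The 50 measured genes around ERBB2 had medians of 0.13 and 0.19 in the same comparisons. No rule for a sample that stands apart could be applied with 1 library per group.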

How the results depend on the processing

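No paired analysis was possible because each group is 1 library and no result comes from a test. The log2 ratios of the 10 genes were computed again under 7 other choices of cells or scaling: 236 of 251 values stayed inside their counting interval, 15 moved outside it and 0 changed sign among those clear of 0. The counts past 1 log2 unit changed as follows. With TMM and with DESeq2 scaling 1 was higher in RES-B against LNCaP (2 before, ERBB3 at 0.93 and 0.94) and 1 lower in RES-B against RES-A (0 before, HBEGF at -1.03 and -1.01), and 2 higher there (3 before, EGF at 0.95 and 0.97). With the mean of per-cell CPM and without the 5% of cells with the most UMIs that comparison also had 1 lower (HBEGF at -1.01 and -1.03) and 2 higher (EGF at 0.9994 and 0.99). With all barcodes 3 were lower in RES-A (EGF at -0.99). Among G1 cells 2 were lower in RES-A (4 before) and 1 higher in RES-B against RES-A (3 before, with ERRFI1 at 0.99 and EGF, at 1.17, under the CPM minimum). With no CPM minimum 1 was higher after 48 h, 2 lower in RES-B against RES-A and 3 higher in RES-A against LNCaP, all added genes being ERBB4, AREG or EREG. With a minimum of 10 CPM 0 were lower and 1 higher in RES-B, 2 lower and 0 higher in RES-A, and 2 higher between the resistant lines. Among the other pathway genes, the 1 lower after 48 h became 2 with all barcodes, with 1 set of limits for all libraries and among G1 cells (DUSP4), and the 4 lower in RES-B became 6 with TMM and DESeq2 scaling (BRAF and CBL) and 5 with the mean of per-cell CPM or without the 5% of cells with the most UMIs (BRAF). With no minimum the pathway counts were 4 lower and 1 higher after 48 h, 2 higher in RES-A, 8 lower and 2 higher in RES-B, and 2 lower and 2 higher in RES-B against RES-A. With a minimum of 10 CPM they were 0 lower after 48 h, 2 lower and 0 higher in RES-B, 4 lower and 0 higher in RES-A, and 0 higher in RES-B against RES-A. Shares of cells scale with depth: 61 of 80 moved outside their interval when not thinned or thinned to 2000 UMIs. The checks of the quintiles and of EGF at equal depth were chosen after seeing the data. Depth limits EREG, ERBB4 and AREG most, each with under 25 UMIs in at least 3 libraries.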
